A study of Mus musculus with 2 samples.

Results

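The immunoglobulin heavy chain locus was examined in thymus chromatin by DNase-seq, in which DNase I cuts open DNA and the cut ends are sequenced. Its members were the 142 genes of GENCODE M21 that are typed as variable (V), diversity (D), joining (J) or constant (C) segments and whose symbols start with Igh, of 55413 genes on the assembled chromosomes. They comprised 113 V, 17 D, 4 J and 8 C segments on the minus strand of mouse chromosome 12. With 100 kb added on each side, the span ran from chr12:113154830-116100461 (mm10). It held 195 of 97051 peaks in replicate 1 and 218 of 108010 peaks in replicate 2. Another 70 V and 3 D pseudogenes and 2 genes typed as leader-V lie in the span and were not counted as members.

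The thymus samples came from 2 mice, both female and 14 days old, of the hybrid B6CASTF1/J, which carries a C57BL/6J and a CAST/EiJ copy of each chromosome. The labels name no treatment and give the mice separate numbers under the same donor entry, so they were taken as 2 animals of 1 group. There was no control group, so the heavy chain locus was set beside the other antigen receptor loci and the rest of the genome of the same 2 libraries, with no test. How reads from the CAST copy were placed on the mm10 sequence was not stated in the labels. In tissue of mixed cells, fewer open cells and less open chromatin per cell cannot be told apart.

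A heavy chain gene is assembled in B cell precursors by cutting and joining a D to a J segment and then a V to the joined DJ. The RAG recombinase cuts at recombination signals, each a heptamer, a spacer and a nonamer, which sit 3' of every V, on both sides of every D and 5' of every J. Thymocytes use the same enzyme on their T cell receptor loci, and partial D to J joining of the heavy chain locus is known in mouse thymocytes. Known control elements of the locus include the enhancer Eμ in the intron between the J segments and Ighm, a 3' regulatory region beyond Igha, a group of CTCF sites beyond that, and IGCR1, a pair of CTCF sites 5' of Ighd1-1. CTCF is a DNA-binding protein that anchors chromatin loops, mostly between sites that point toward each other.

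Sequences that carry the main results were read from GRCm38.p6, the assembly of mm10, and are given 5' to 3' on the named strand. The first set is the recombination signal of 3 V segments with strong peaks. It starts at the first base after the segment, and capitals mark the letters ACCACA, the reverse complement of the RUNX string TGTGGT.
Ighv1-12 (chr12:114615811-114615849, minus strand): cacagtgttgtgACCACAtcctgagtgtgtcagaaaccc
Ighv14-2 (chr12:113994430-113994468, minus strand): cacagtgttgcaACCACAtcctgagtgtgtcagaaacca
Ighv1-39 (chr12:114914560-114914598, minus strand): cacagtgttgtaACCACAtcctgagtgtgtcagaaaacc
The second set runs from the same base of 3 V segments of other families to a match of the CTCF string, in capitals.
Ighv5-2 (chr12:113578419-113578503, minus strand): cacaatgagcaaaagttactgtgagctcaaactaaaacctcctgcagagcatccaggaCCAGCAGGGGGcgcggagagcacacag
Ighv11-1 (chr12:113981794-113981878, minus strand): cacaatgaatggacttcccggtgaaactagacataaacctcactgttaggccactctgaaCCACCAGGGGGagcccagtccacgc
Ighv2-2 (chr12:113588182-113588266, minus strand): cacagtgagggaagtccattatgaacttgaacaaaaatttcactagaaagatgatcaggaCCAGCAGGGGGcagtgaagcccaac
The third set shows CTCF strings, in capitals, that lie 5' of a V segment of family 1 or 8.
5' of Ighv1-67 (chr12:115605157-115605187, minus strand): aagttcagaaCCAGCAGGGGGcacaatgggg
5' of Ighv1-9 (chr12:114587425-114587455, minus strand): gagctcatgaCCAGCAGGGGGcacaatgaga
5' of Ighv8-12 (chr12:115655969-115655999, minus strand): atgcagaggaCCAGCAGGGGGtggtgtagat
The fourth set shows the CTCF strings of the peak cluster 3' of Igha, which point the other way, and the best matches in the pair of peaks 5' of Ighd1-1, each with 1 mismatch to the string.
3' cluster site 1 (chr12:113216108-113216138, plus strand): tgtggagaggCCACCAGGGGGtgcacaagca
3' cluster site 2 (chr12:113220043-113220073, plus strand): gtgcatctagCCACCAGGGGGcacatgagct
3' cluster site 3 (chr12:113221398-113221428, plus strand): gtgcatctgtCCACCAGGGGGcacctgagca
site 1 5' of Ighd1-1 (chr12:113485261-113485291, minus strand): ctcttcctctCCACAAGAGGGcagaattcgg
site 2 5' of Ighd1-1 (chr12:113487878-113487908, plus strand): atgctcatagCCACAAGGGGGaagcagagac

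Peaks lay at many heavy chain segments, and they were unevenly spread over segment types. A peak of the authors' longer list lay within 500 bp of 61 of the 142 segments in replicate 1, of 64 in replicate 2 and of 49 in both (34.5%, 95% Wilson interval 27.2 to 42.6%). For protein-coding genes, the share with a peak within 500 bp of a transcription start was 59.9% in replicate 1, 60.9% in replicate 2 and 58.2% in both. For windows of 1500 bp that tile the genome, about the length of a V segment with its margins, the share was 4.67% in replicate 1, 5.17% in replicate 2 and 3.77% in both. The share at Igh lay above that of the windows and below that of the promoters. In both replicates the count was 41 of 113 V segments, 2 of 17 D segments, 4 of 4 J segments and 2 of 8 C segments.

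The other antigen receptor loci gave a wide range by the same measure. The share in both replicates was 49 of 142 segments (34.5%) at Igh, against 67 of 170 (39.4%) at the T cell receptor alpha and delta loci and 25 of 39 (64.1%) at the beta locus. At the immunoglobulin light chain loci it was 0 of 106 segments for Igk and 0 of 12 for Igl. Of the gamma locus, only segments with symbols that start with Trg were counted, 1 V and 4 J. It was 0 of these 5. Any gamma segments under other symbols were left out, and no C segment was counted, so the gamma locus as a whole was not measured. The peaks at V segments of Igh ranked lower than those at V segments of the alpha and delta loci. Their median strength percentile was 28.3 in replicate 1 and 42.1 in replicate 2 at Igh, against 59.6 and 56.6 at the alpha and delta loci. The strength percentile is the rank of a peak's deposited signal among all peaks of the same replicate, and it is given beside strengths because the scale of the signal is the authors' and may differ between libraries.

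**Figure D1:**
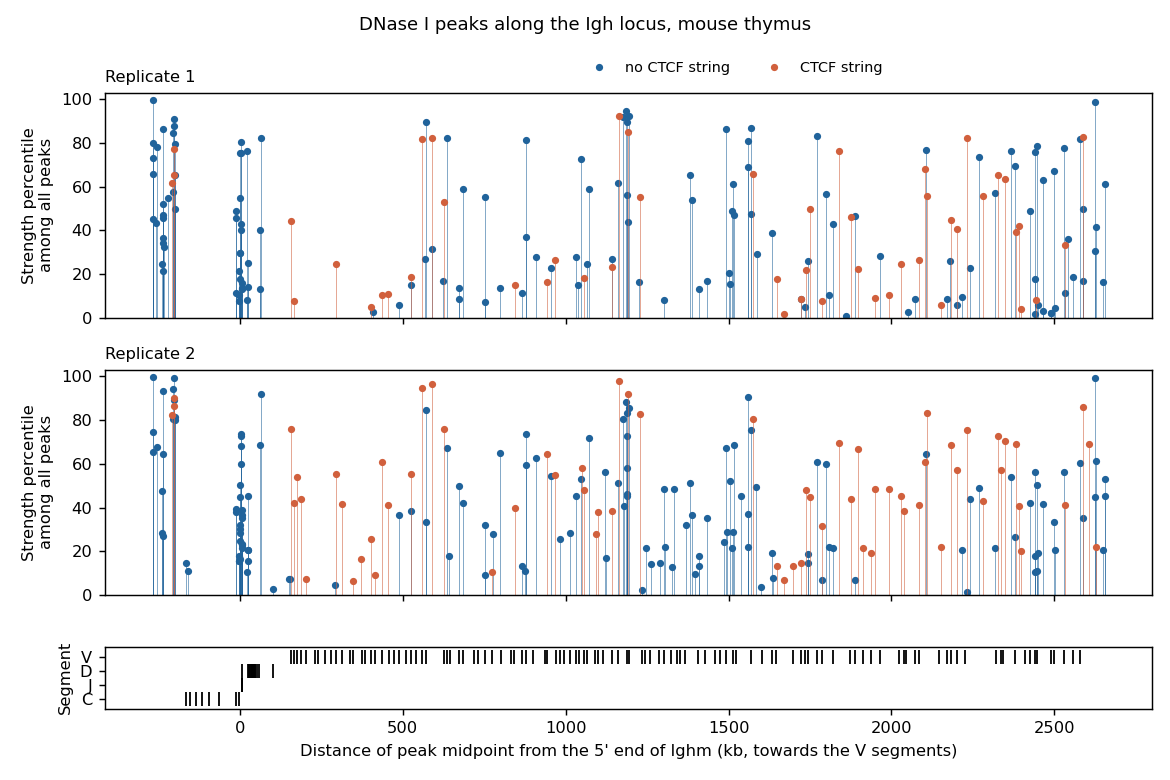
Strength percentile of every peak (y axis) against the distance of its midpoint from the 5' end of Ighm (x axis, kb), with replicate 1 in the top panel, replicate 2 in the middle and the member segments at the bottom. Orange points are peaks with an exact CTCF string in the 300 bp around the midpoint, which are spread over the V segments, and the stretch of C genes left of 0 is nearly empty.

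Promoter peaks of lineage genes were read as a check on the cell types behind these libraries. All 15 T lineage genes (for example Cd3e, Lck and Rag1) had a promoter peak in both replicates, against 6 of 15 B lineage genes. Of all protein-coding genes, 58.2% had a peak within 500 bp of a start in both replicates. Within 2000 bp of a start, the counts were 15 of 15 T lineage and 10 of 15 B lineage genes. The share of all genes within 2000 bp was not counted. No peak lay within 500 bp of a start of Cd79a, Pax5, Cd22, Vpreb1, Igll1 or Fcrla in either replicate. Of 5 plasma cell genes 4 had one in both replicates, all but Jchain, and of 5 genes of plasmacytoid dendritic cells 4 had one, all but Siglech. Lists of 5 genes are too short to set 4 of 5 apart from the 58.2% of all protein-coding genes. T lineage promoter peaks had percentiles from 84.7 to 99 in replicate 1 and from 77.9 to 94.7 in replicate 2. The B lineage genes with a peak spread more widely, with Ebf1 at 88.4 in replicate 1 and 93.1 in replicate 2 and Blnk at 43.1 and 30.9. The part of B lineage cells in the heavy chain peaks was not tested.

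The C genes, which encode the constant parts of the antibody classes, had peaks mainly at the 5' end of the array, in Ighm and Ighd. Ighm, which encodes the first class made, had its strongest peak at the percentile of 29.8 in replicate 1 and 30.3 in replicate 2. The strongest peak of Ighd, the next gene, reached 48.9 in replicate 1, at chr12:113410901-113411100, and 39.3 in replicate 2, at chr12:113410501-113411300. No peak and no base under a false discovery rate of 0.05 lay within 500 bp of Ighg3, Ighg1, Ighg2b, Ighg2c or Ighe in either replicate. Igha had 1 weak peak in replicate 2 alone, at the percentile of 14.8.

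The empty stretch around these genes was long in both animals. It measured 186 kb without a peak in replicate 1 and 145 kb in replicate 2, where it stopped short of Igha. Of the 36-base words, 81.7% in the stretch of replicate 1 and 82.1% in that of replicate 2 occur once in the assembled genome. What the lack of peaks there owes to the placing of reads was not tested. The first 30.3 kb 3' of Igha, the side on which the 3' regulatory region is known to lie, held no peak in either replicate. Bases under a false discovery rate of 0.05 made up 0.056% of it in replicate 1 and 0.26% in replicate 2.

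Beyond that gap, a cluster of strong peaks began. Between 30 and 39 kb 3' of Igha there were 10 peaks in replicate 1 and 9 in replicate 2, and 9 in each overlapped a peak of the other. Percentiles ran from 49.9 to 90.8 in replicate 1 and from 79.9 to 99.2 in replicate 2. The strongest peak of the cluster, chr12:113222121-113222320, had the same borders in both replicates and a strength of 5.70 (percentile 90.8) in replicate 1 and 9.78 (percentile 99.2) in replicate 2. It lies 32.5 kb from Igha. The 3 exact CTCF strings of the cluster, printed above, all lay on the plus strand and each was under a footprint in both replicates. Their peaks had percentiles of 61.9, 77.2 and 65.5 in replicate 1 and 82.2, 89.9 and 86.2 in replicate 2, in the order of the sequences. A footprint is a short run inside open DNA that is protected from cutting, as called by the authors.

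An exact or nearly exact CTCF string was common in these peaks. Within the 300 bp around the midpoint, 8 of 10 cluster peaks in replicate 1 (80%) held the string with at most 1 mismatch, against 26.9% of all peaks. In replicate 2 this was so for 7 of 9 (77.8%), against 30.5% of all peaks. Other strong peaks of the flanks lay near the starts of neighbouring genes. The peak 271 bp from the start of Tedc1 reached the percentile of 99.8 in replicate 1 and 99.7 in replicate 2, and the peak at the start of Zfp386, on the V side, reached 98.6 and 99. A peak 1.85 kb from the start of Tmem121 reached 86.3 in replicate 1 and 93.4 in replicate 2.

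The intron between Ighj4 and Ighm had the largest share of its bases under peaks of the regions compared in the locus, in both replicates. In its 5.78 kb, replicate 1 had 8 peaks that covered 36.8% of the bases and replicate 2 had 10 peaks that covered 62.2%. All 8 peaks of replicate 1 and 7 of the 10 of replicate 2 overlapped a peak of the other animal. The strongest reached the percentile of 80.2 in replicate 1 and 73.8 in replicate 2, and the median of the intron's peaks was 48.7 in replicate 1 and 47.5 in replicate 2. Peaks of middling rank thus covered much of the intron.

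A peak in this intron lay among strings of several B cell and lymphoid factors, at a place where Eμ is known to lie. It spans chr12:113427441-113427660 in replicate 1, with a strength of 1.88 (percentile 75.3), and chr12:113427361-113427680 in replicate 2, with 1.30 (percentile 72.5). It starts 854 bp 3' of Ighj4 in replicate 1 and 834 bp in replicate 2. The 300 bp around its midpoint in replicate 1 follow, with capitals on every match to the octamer ATGCAAAT (a site of the B cell factor OCT2 and its relatives), the E-boxes CAGCTG and CAGGTG (sites of E proteins), the ETS string AGGAAG, the RUNX string TGTGGT and the YY1 string GCCATNTT, each searched on both strands.
J-C intron peak near Ighj4 (chr12:113427401-113427700, minus strand): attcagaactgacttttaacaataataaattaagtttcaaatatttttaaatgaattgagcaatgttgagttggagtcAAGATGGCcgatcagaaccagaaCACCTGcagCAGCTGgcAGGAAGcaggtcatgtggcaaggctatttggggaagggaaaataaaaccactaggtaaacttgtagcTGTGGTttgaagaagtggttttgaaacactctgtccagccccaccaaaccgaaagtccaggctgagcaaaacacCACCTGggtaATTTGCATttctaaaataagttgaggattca
The matches do not overlap each other. The octamer and most of the CACCTG next to it lie outside the replicate 1 peak and inside the replicate 2 peak. Of all peaks, 1.22% in replicate 1 and 1.35% in replicate 2 hold the octamer within the same length, and 24.5% and 23.5% hold the RUNX string. The shares for replicates 1 and 2 were 23.8% and 20.7% for CAGCTG, 32.2% and 28.4% for CAGGTG, 41.9% and 39.4% for the ETS string and 5.57% and 5.59% for the YY1 string. A match is a description of the letters, and binding was not measured. The peak held 2 footprints in replicate 1 and 5 in replicate 2.

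The strongest peak of the intron lay closer to Ighm. In replicate 1 it was chr12:113425321-113425540 with a strength of 2.45 (percentile 80.2), and in replicate 2 it overlapped chr12:113425441-113426060 with 1.37 (percentile 73.8). The peak of replicate 1, 2591 bp from Ighm, holds 24 copies of GAGCT or GGGGT, the pentamers of the switch region used in class switching, on the gene's strand, or 10.9 per 100 bp. That of replicate 2, longer and farther from Ighm, holds 13, or 2.10 per 100 bp. A neighbouring peak of replicate 1, chr12:113424681-113425020 with the percentile of 75.4, holds 59 copies. Only 28.8% of its 36-base words occur once in the genome, and how reads from such repeats were placed was not stated. The count of pentamers was added after the peaks had been seen.

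**Figure D2:**
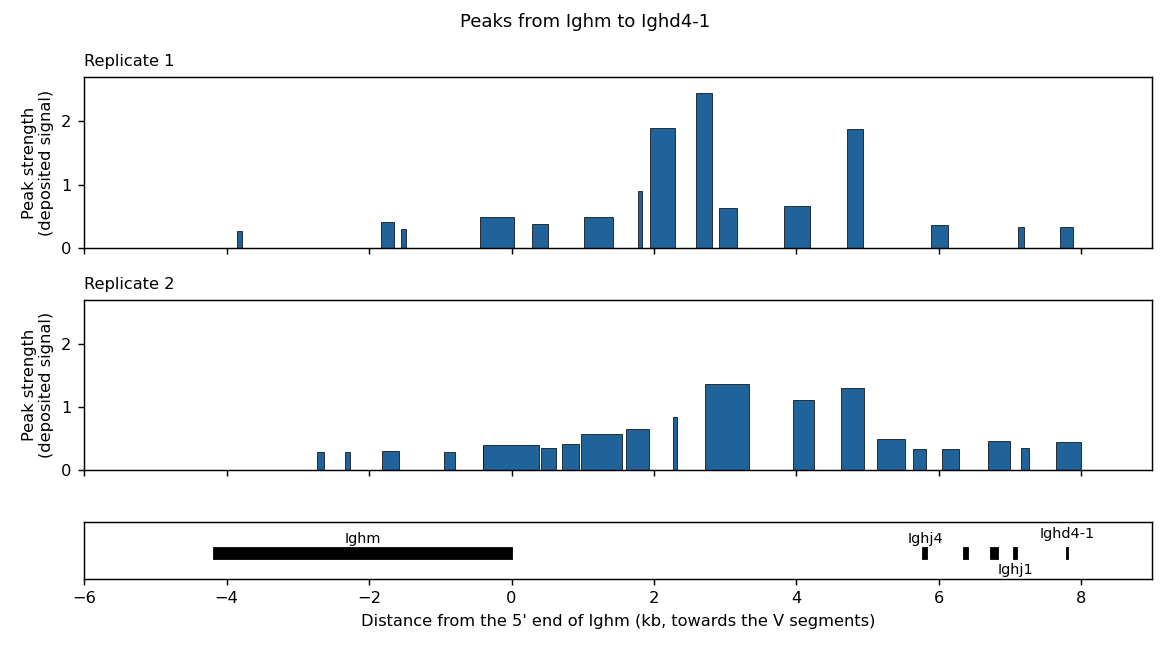
Peak strength (y axis, the deposited signal) against the distance from the 5' end of Ighm (x axis, kb), with each bar as wide as its peak. Replicate 1 is on top, replicate 2 below it, and black boxes mark Ighm, the 4 J segments and Ighd4-1. The tallest bar inside the intron reaches 2.45 in replicate 1 and 1.37 in replicate 2, and peaks cover 36.8% and 62.2% of it.

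The J segments lay at the weak edge of this open stretch. Each of the 4 had a peak within 500 bp in both replicates, but their windows overlap and share peaks, the strongest of which had percentiles from 13.2 to 15.9 in replicate 1 and from 36.7 to 38.8 in replicate 2. No J segment was itself overlapped by a peak in both replicates. In replicate 1 a peak overlapped the recombination signal of Ighj1 but not the heptamer next to the segment. In replicate 2 a peak overlapped the bases 5' of Ighj2 as annotated, where the usual heptamer does not border the segment.

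Of the D segments, the one nearest to the J segments was open. Ighd4-1, also called DQ52, lay inside a peak in both replicates, chr12:113430430-113430618 with the percentile of 13.8 in replicate 1 and chr12:113430382-113430724 with 35.1 in replicate 2. Both of its recombination signals were under that peak. They are printed with the segment in capitals.
Ighd4-1 (chr12:113430500-113430566, minus strand): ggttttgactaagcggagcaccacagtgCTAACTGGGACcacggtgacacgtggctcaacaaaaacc
Ighd3-2 had a peak on its 5' signal, at the percentile of 25 in replicate 1 and 20.7 in replicate 2. A stronger peak lay 1.9 kb from Ighd3-2 in replicate 1, chr12:113446141-113446320, with the percentile of 76.3 and an overlapping peak at 45.5 in replicate 2. The 14 D segments from Ighd5-6 to Ighd1-1 had no peak and no base under a false discovery rate of 0.05 within 500 bp in either replicate. Except at Ighd1-1, where 100% of the words are unique, these segments sit in repeated DNA, with a median over the 14 of 40.9% unique words and a minimum of 21%. What the lack of peaks there owes to mapping was not tested. Ighd3-1, the last D segment towards the V segments, had 1 peak in replicate 2 alone, at the percentile of 2.73.

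The strongest peak of the D part, and a weaker one beside it, lay 5' of Ighd1-1, the segment also called DFL16.1, where IGCR1 is known to lie. The nearer peak, chr12:113485221-113485400 in replicate 1 and chr12:113485201-113485400 in replicate 2, had a strength of 0.63 (percentile 40.4) in replicate 1 and 1.12 (percentile 68.5) in replicate 2. The farther one, 5.59 kb from the segment at chr12:113487781-113487980 in replicate 1, had 2.74 (percentile 82.1) in replicate 1 and 3.92 (percentile 92.0) in replicate 2. Neither holds an exact CTCF string. The best match of each, printed above, has 1 mismatch, on the minus strand in the nearer peak and on the plus strand in the farther, so the pair points in opposite directions. A match this close was found in 26.9% of all peaks of replicate 1 and 30.5% of those of replicate 2. Whether these peaks are bound by CTCF was not tested.

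The V part, 2422 kb long, held most of the peaks, at a density above that of the genome. There were 134 peaks in replicate 1 (5.53 per 100 kb) and 155 in replicate 2 (6.40 per 100 kb), against 3.67 and 4.08 per 100 kb in the genome. Their median percentile was 28.1 in replicate 1 and 42.1 in replicate 2, so they were weaker than the median peak of the genome in both. Of the V part's peaks, 77.6% in replicate 1 and 67.7% in replicate 2 overlapped a peak of the other animal, against 75.2% and 66.4% of all peaks. From the D side, 3 parts of equal length held 30, 46 and 58 peaks in replicate 1 and 38, 66 and 51 in replicate 2.

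Most V segments with the strongest peaks shared a feature of their signals. Of the 10 with the highest mean percentile, 9 carried the letters ACCACA in their recombination signal. They were Ighv1-12, Ighv14-2, Ighv1-11, Ighv1-47, Ighv9-4, Ighv1-39, Ighv14-3, Ighv1-54 and Ighv1-85. The other was Ighv11-1, which has a CTCF string next to its signal. Of all 113 V segments, 47 carried the letters, and of the 41 with a peak in both replicates, 22 did. These letters were picked after the peaks had been seen. The peak on the signal of Ighv1-12, chr12:114615781-114615980 in replicate 1, had a strength of 7.01 (percentile 92.6) in replicate 1 and 2.44 (percentile 85.6) in replicate 2. That of Ighv14-2 had 5.15 (percentile 89.8) in replicate 1 and 2.28 (percentile 84.5) in replicate 2. That of Ighv1-39 had 3.84 (percentile 86.6) in replicate 1 and 1.07 (percentile 67.0) in replicate 2. Each of these 3 ranked lower in replicate 2. That of Ighv11-1 had 2.7 (percentile 81.8) in replicate 1 and 4.95 (percentile 94.5) in replicate 2, and so ranked higher in replicate 2. Ighv1-11 reached the percentile of 89.6 in replicate 1 and 83.3 in replicate 2, and Ighv1-47 reached 86.8 and 75.4. Ighv9-4, of a family in which all 4 segments hold the letters, reached 81.2 in replicate 1 and 73.7 in replicate 2. Ighv14-3 reached 82.2 and 67.4, Ighv1-54 reached 83.3 and 60.9, and Ighv1-85, the farthest of the 10 from the D segments, reached 81.6 and 60.4. The V peak of highest strength in replicate 1, chr12:114609341-114609500, lay on no segment and held no CTCF string, with 9.05 (percentile 94.6) in replicate 1 and 2.87 (percentile 88.1) in replicate 2. A strong peak with a CTCF string lay at the pseudogene Ighv4-2, which is not a member. It spans chr12:114012981-114013160 in replicate 1, with 2.80 (percentile 82.4) in replicate 1 and 6.05 (percentile 96.3) in replicate 2.

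Peaks on V segments without a CTCF string were centred near the 3' end of the segment, where the recombination signal begins. There were 55 such peaks in replicate 1 and 44 in replicate 2, pseudogenes included. The median distance of the midpoint from the 3' end of the segment, where the heptamer starts, was 9 bp in replicate 1 and 14.5 bp in replicate 2, on the side of the segment. In replicate 1, 50 of the 55 midpoints lay within 200 bp of that end, and in replicate 2, 42 of the 44. A closer limit of 50 bp was read for member signals under a peak and without a CTCF string within 100 bp. Within it lay the peak midpoint for 32 of 41 signals in replicate 1 and 13 of 30 in replicate 2, so the centring was looser in replicate 2. Of these peaks, 80.0% in replicate 1 and 70.5% in replicate 2 held the RUNX string, against 24.5% and 23.5% of all peaks. The string had a fixed direction there, with 45 matches on the plus strand and 3 on the minus strand in replicate 1, and 33 and 2 in replicate 2. A match of TGTGGT on the plus strand reads ACCACA on the strand of the genes. All member V segments lie on the minus strand, so any peak over a signal with ACCACA gives this direction. Open or not, 47 of 113 member V signals carried ACCACA, as did 24 of 72 signals of pseudogenes and leader-V genes.

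The position of the string in the signal was fixed to the base. RUNX proteins, of which RUNX1 and RUNX3 act in T cell development, are known to bind such letters. ACCACA occurred in the 39 bases of the signal of 47 of the 113 V segments, and in all 47 it started at base 13, inside the 23-base spacer that follows the 7-base heptamer. Of these signals, 33 of 47 (70.2%, 95% Wilson interval 56.0 to 81.3%) were under a peak in replicate 1 and 22 of 47 (46.8%, 33.3 to 60.8%) in replicate 2. Of the 42 signals with neither ACCACA nor a CTCF string within 100 bp 3' of the segment, 8 (19.05%, interval 9.98 to 33.3%) were under a peak in each replicate. For windows of 39 bp that tile the genome, the share under a peak was 0.838% in replicate 1, 1.06% in replicate 2 and 0.595% in both. Family and string go together, since 40 of the 47 belong to family 1. Within family 1, 27 of 40 signals with the string were under a peak in replicate 1 and 17 of 40 in replicate 2, against 1 of 13 without the string in each replicate. That 1 was Ighv1-56, and the others without the string all lay from Ighv1-16 to Ighv1-43. Of the members with the string in that stretch, Ighv1-39 and Ighv1-42 were under a peak in both replicates and Ighv1-23 in neither. String and position thus go together in part, and the share of each was not tested. The median share of unique words around the family 1 segments was 61.0% with the string and 54.6% without it. Signals with the string in families 9 and 14 were open as well, with 6 of 7 under a peak in replicate 1 and 5 of 7 in replicate 2. Among the pseudogenes and leader-V genes, a peak covered 11 of 24 signals with the string in replicate 1 and 9 of 24 in replicate 2, against 2 and 3 of 46 with neither string. A footprint overlapped the string itself by at least 1 bp in 12 of the 47 signals in replicate 1 and in 6 in replicate 2.

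The same letters were rare at T cell receptor V segments. They occurred in the signals of 47 of 113 V segments at Igh, against 8 of 113 at the alpha and delta loci and 0 of 22 at the beta locus. Signals were under a peak at those loci too. Signals under a peak in both replicates numbered 38 of 113 (33.6%) at Igh, against 28 of 113 (24.8%) at the alpha and delta loci and 7 of 22 (31.8%) at the beta locus. At Igk it was 0 of 100, which allows a share of up to 3% by the limit of 3 counts, with a 95% Wilson upper bound of 3.699%. ACCACA was set as the letters to count after the peaks had been seen, while the RUNX string had been listed with the other motifs.

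**Figure D3:**
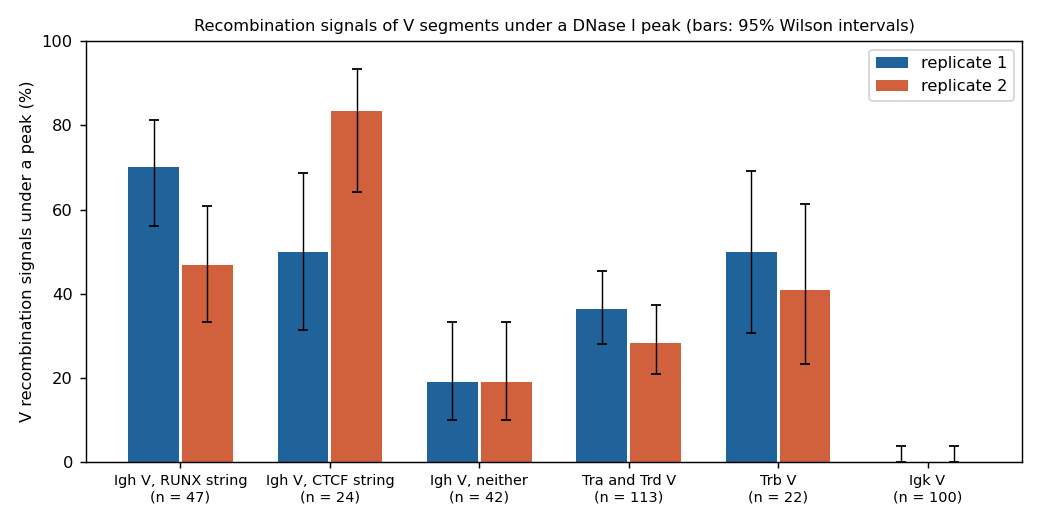
Share of V recombination signals under a peak (y axis, %) by class of signal (x axis, with the number of signals). The Igh signals are those with the RUNX string, with a CTCF string or with neither. Beside them stand the V signals of the T cell receptor alpha and delta loci, the beta locus and Igk. Blue bars are replicate 1, orange bars replicate 2, and whiskers are 95% Wilson intervals; the signals with the RUNX string stand at 70.2% in replicate 1 and 46.8% in replicate 2.

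The second kind of V peak held a CTCF string. An exact string lay in 33.6% of the V part's peaks in replicate 1 and 38.7% in replicate 2, against 7.46% and 8.69% of all peaks. Of 84 exact strings in the V part, 83 were on the minus strand, the strand of the genes, and 1 was on the plus strand. A peak of both replicates covered 43 of those 83 (51.8%), against 21% of all exact strings of the genome. In replicate 1 it was 44 of 83 and in replicate 2 it was 59 of 83, against 21.7% and 28.5% of all exact strings. The strings under V peaks thus pointed towards the D, J and C segments, and the 3 strings of the cluster 3' of Igha pointed back towards them. With the gap between the V and D segments included, 62 strings were in the 300 bp around a peak midpoint, 61 of them on the minus strand. A footprint covered 37 of the 62 in replicate 1 and 53 in replicate 2.

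The place of the strings under peaks relative to the nearest V segment, pseudogenes included, went with the V family. In families 2, 3, 4, 5, 6, 10, 11 and 12 it lay from 61 to 69 bp 3' of the segment, just past the nonamer of the signal, and in family 13 it lay 80 bp 3'. Family 1 had no string within 100 bp 3' of its segments. Of the strings nearest to family 1, 12 lay at -835 to -740 bp from the segment, where negative values are 5', 14 lay at -27050 to -1261 bp, and 1 lay 476 bp 3', at Ighv1-12. All 11 strings nearest to family 8 lay at -23664 to -3737 bp, and a peak of both replicates held each of them. Unique words around these strings ran from 22.5% at Ighv8-13 to 93.7% at Ighv8-11, with 32.4% at Ighv8-5, Ighv8-6 and Ighv8-10. How reads from such repeats were placed was not stated. The strongest V peak with a string, chr12:114587381-114587540 in replicate 1, lay 3.38 kb from Ighv1-9 and had a strength of 6.97 (percentile 92.5) in replicate 1 and 7.37 (percentile 97.8) in replicate 2. At Ighv5-2, the member V segment nearest to the D segments, the peak had 0.69 (percentile 44.4) in replicate 1 and 1.503 (percentile 76.0) in replicate 2.

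Families with the string beside the signal were open in more segments of replicate 2. In family 5, a peak covered the signal of 3 of 10 segments in replicate 1 and 7 of 10 in replicate 2. In family 2 the counts were 3 of 9 in replicate 1 and 5 of 9 in replicate 2. Both segments of family 11 had a covered signal in both replicates. The single plus-strand string lay inside Ighv15-2.

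**Figure D4:**
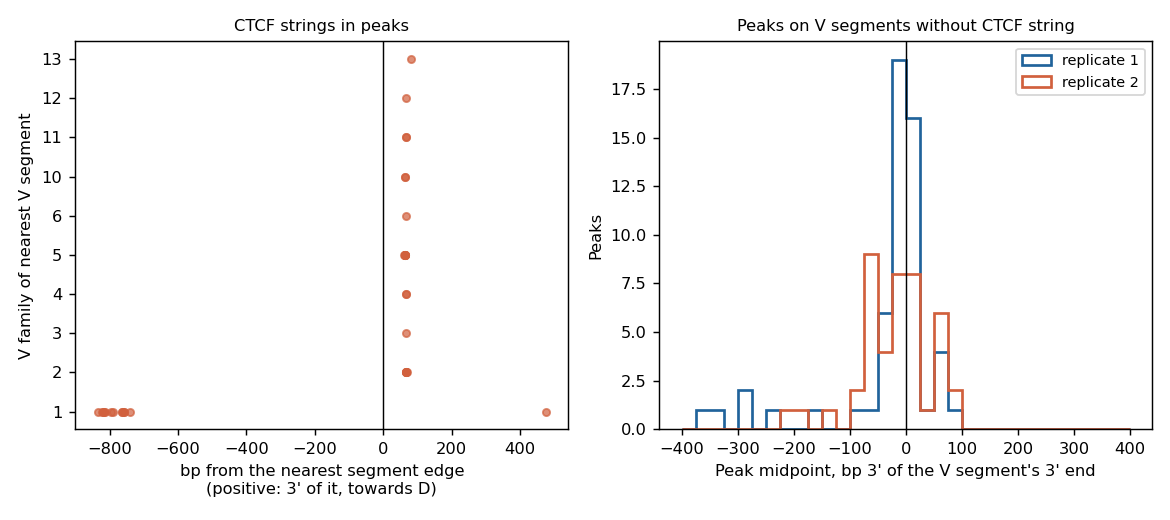
Left, position of each minus-strand CTCF string under a peak (x axis, bp from the nearest edge of the nearest V segment, positive towards D) by V family (y axis), within 1000 bp. Right, number of peaks (y axis) on V segments without a CTCF string by the distance of the midpoint from the 3' end of the segment (x axis, bp), in replicate 1 (blue) and replicate 2 (orange); the medians lie 9 and 14.5 bp on the segment side of 0.

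Both kinds of V peak differed in rank between the animals, in opposite directions. Among signals with a CTCF string within 100 bp, 12 of 24 were under a peak in replicate 1 and 20 of 24 in replicate 2, while for those with ACCACA the counts were 33 and 22 of 47. Peaks that overlapped 1 to 1 between the replicates gave the same split. For V peaks with a CTCF string the median log2 ratio of strength, replicate 2 over replicate 1, was 0.54 (44 pairs, quartiles 0.03 and 0.88), and 36 of the 44 had the higher percentile in replicate 2. For V peaks without it that overlapped a V segment, the median was -1.25 (35 pairs, quartiles -1.51 and -0.92), and 5 of the 35 had the higher percentile in replicate 2. Of these, the 29 that held the RUNX string had a median of -1.35, and none of the 29 had the higher percentile in replicate 2.

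The scale of strength may itself differ between the libraries, so these ratios are read against the rest of the genome, where the median over all 64314 pairs was -0.25 and 37313 pairs had the higher percentile in replicate 2. Distal peaks with a CTCF string had a median log2 ratio of 0.54 in the V part, against 0.77 over 6658 pairs in the rest of the genome. For V peaks on a segment with the RUNX string and no CTCF string, the median was -1.35, against -0.44 over 12905 distal pairs with the RUNX string and no CTCF string in the rest of the genome. The median percentile of those V peaks was 73.7 in replicate 1 and 51.4 in replicate 2, while that of the 12905 pairs was 55.7 in replicate 1 and 56.3 in replicate 2. V peaks off the segments and without a CTCF string had a median of 0.38 (24 pairs). These classes share the 2 libraries, and whether the difference lies in the animals, their cells or the libraries cannot be told apart with 1 library each.

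**Figure D5:**
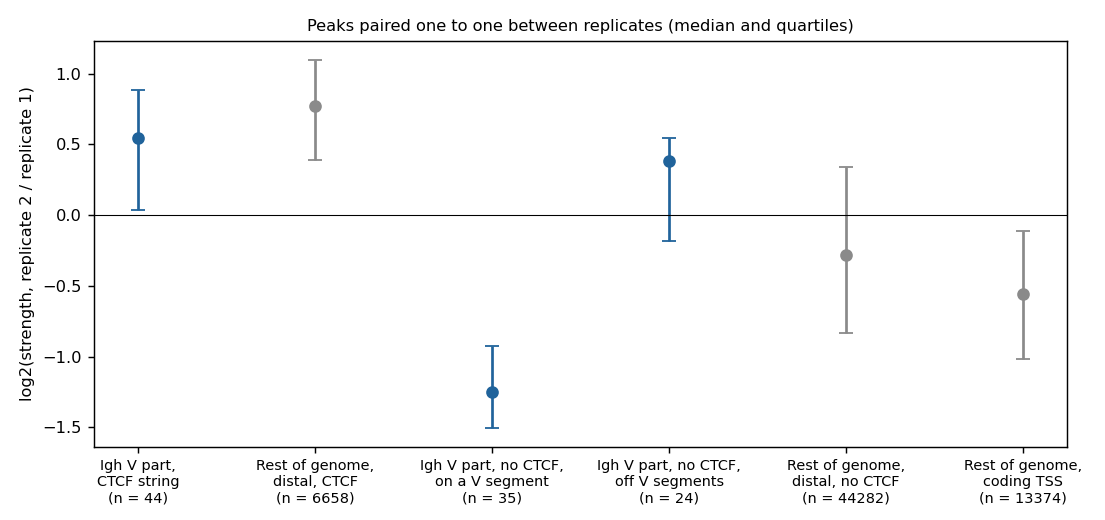
Median log2 ratio of peak strength, replicate 2 over replicate 1 (y axis), with quartiles as whiskers, for classes of peaks that pair 1 to 1 (x axis, with the number of pairs). Blue points are classes of the Igh V part and grey points the rest of the genome; the V peaks on segments without a CTCF string lie lowest at -1.25.

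The pattern of footprints did not set the locus apart. There were 12.2 footprints per kb of peak in replicate 1 and 11.2 in replicate 2 in the whole span, against 12.5 and 11.1 in the genome. In the intron between the J segments and Ighm it was 7.98 per kb in replicate 1 and 8.62 in replicate 2.

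Repeated DNA limits all counts of V segments. Only 63.9% of the 36-base words of the V part occur once in the assembled genome. The median share of unique words around a segment was 79.7% for the 41 V segments with a peak in both replicates, against 62.2% for the 47 with a peak in neither. Of the 47 members of all types with at least 90% unique words, 24 (51.1%) had a peak in both replicates.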

How the data were processed

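DNase-seq of thymus was analysed in 2 animals. Per the labels and the listing of files, the authors deposited 2 peak lists, footprints and a track of q-values per animal, on mm10. The longer peak list was used, and its column of signal, made by the authors on a scale the files do not explain, is called strength. The deposited q-value (FDR) track lists only bases under 0.05, called listed bases. The aligner, the callers and the read depth were not given, so intervals cover counting error only. No read counts were used.

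Segments came from GENCODE M21 and sequence from GRCm38.p6. A segment had a peak if one lay within 500 bp. Words of 36 bases were called unique if found once, on both strands. Motifs were exact strings on both strands of the 300 bp around a peak midpoint, with CTCF searched by its consensus. Recombination signals were taken as the 39 bases beside V and J and the 28 bases beside D segments. Peaks were shared at an overlap of 1 bp. A signal or string was counted as under or covered by a peak or footprint at the same overlap, not only when covered in full. Peaks were named mainly from the 10 V segments of highest mean percentile, the 8 strongest shared V peaks and the 12 strongest shared peaks elsewhere, beside the J to Ighm intron. Not every peak of these lists is named. Members, lists and motifs were chosen with earlier results of these data known. With 1 group there was no test. Python 3.11.15, NumPy 2.4.6, pandas 2.3.3 and SciPy 1.17.1 were used, and scripts were tested on simulated data.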

Additional observations from a re-analysis of the deposited data

How the results depend on the processing

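Each value here is the mean of the 2 replicates, and 1 SD between them was the measure of a move. The share of segments with a peak was 44.01%, and it was 29.2% with the authors' shorter list, 38.0% with a window of 0 bp, 50.4% with 2000 bp, 36.3% with pseudogenes added and 58.5% among segments of at least 90% unique words. With the shorter list, peaks per 100 kb were 2.08 in the constant genes (5.06 with the longer list) and 3.96 in the V part (5.97), the strongest peak of the J to Ighm intron had a percentile of 65.9 (77.0) and footprints per kb of peak in the span were 14.1 (11.7). Per 100 kb of unique words the V part held 9.33 peaks. Shared peaks made up 57.3% at a reciprocal overlap of 50% (73.4%). The median percentile of the intron's peaks was 48.1. Footprints per kb of listed bases were 8.40. Another CTCF string, freer inside but with an added C at its end, was found in 29.2% of V peaks, against 18.7% and 21.1% of all peaks. Because of the added C it need not match every exact site, and the exact string was found in 36.1%. Of the other 15 of 29 alternatives, the B lineage genes with a promoter peak numbered 10.5 within 2000 bp, against 7, which is 1.5 times. The rest moved by less than 1 SD, or less than 1.5 times for counts. Causes were not tested.

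Leaving out either animal gave 43.0 to 45.1% of segments, 4.17 to 5.96 peaks per 100 kb in the constant genes, 5.53 to 6.40 in the V part, 18 to 27 in the 3' flank, 138 to 173 in the intron, percentiles of 73.8 to 80.2 for the intron's strongest peak, 11.2 to 12.2 footprints per kb and 33.6 to 38.7% of V peaks with a CTCF string. No paired analysis was possible because there is only 1 group.

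Depth is unknown, so a segment without a peak is not shown to be closed. Only 66.2% of the words of the span are unique. Some peaks lie on words found in several copies. With 1 library per animal, differences between the replicates have no error of their own.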
